A study of Bos taurus with 21 samples.

Results

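Serum extracellular vesicles (EVs) of 7 cows with clinical mastitis were compared with those of 7 healthy cows, the control group. These 14 libraries, of 21 in the study, were chosen by the condition in their labels. The other libraries come from cows with subclinical mastitis, an inflammation that cannot be seen, and are not compared here. Each library is small RNA from the serum vesicles of 1 cow. The labels give only the condition, clinical mastitis or healthy. The breed, age, stage of lactation, pathogen and treatment of the cows are unstated in the labels, so any of these that differ between the groups cannot be told apart from the disease.

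Mastitis is inflammation of the mammary gland, most often after bacterial infection, and in its clinical form the milk or the udder is visibly altered. Vesicles are membrane-bound particles that cells release into milk and blood. They carry microRNAs (miRNAs), short RNAs that guide repression of messenger RNAs with matching sites, and their miRNAs are studied as possible blood markers of disease. Blood cells, platelets, the vessel lining and organs such as the liver all contribute vesicles to serum, so fewer cells of a type, fewer vesicles per cell and less RNA per vesicle cannot be told apart.

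The table of 847 rows holds 298 known bovine miRNAs, 235 of them read in at least 1 of the 14 libraries, and 549 numbered rows, 540 of them read. A numbered row carries a chromosome or scaffold name and a number in place of a miRNA name, and comes with neither sequence nor coordinates here. Values are reads per 1000000 of a scaling total, with a total of its own for each block of rows, known or numbered, and are called signal below. The scaling total is smaller than the reads summed over the rows, so the values of a library sum to more than 1000000, by 2.25% to 5.39% for known and 8.71% to 15.0% for numbered rows. Signal, and each share of known reads below, is relative to that scaling total, known or numbered. miRNAs within 1 library are compared as shares of reads, which also depend on how well each miRNA enters a library.

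Known miRNAs were thinly sequenced. A healthy library held between 1371 and 5706 known reads, with a median of 2190, and a clinical library between 1386 and 34565, with a median of 3388. Clinical 7 alone held 34565 of the 64783 clinical known reads, and clinical 1 held 13914. One read of a known miRNA was worth between 29.6 (clinical 7) and 750.8 (healthy 6) units of signal. Numbered rows had 13033 to 34215 reads per healthy and 30931 to 50212 per clinical library.

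No known miRNA differed between clinical and healthy cows past the test. limma with Benjamini-Hochberg adjustment was run on log2 signal plus the value of 1 read in a library of median depth (334.7 for known and 34.4 for numbered rows), over the 68 known and 388 numbered rows read in at least 7 of the 14 libraries. It called 0 of 456 rows at an adjusted p under 0.05 (0% called, lowest adjusted p = 0.174). At an unadjusted p under 0.05 there were 38 rows, 8.33% of those tested: 1 known row (1.47% of known rows), with a lower value in clinical cows, and 6 numbered rows with higher (1.55% of numbered rows) and 31 with lower values (7.99%). edgeR's quasi-likelihood test on recovered whole reads called 0 rows, with 32 at an unadjusted p under 0.05, and DESeq2 called 2 numbered rows (0.439%), with 44. The median log2 change, clinical minus healthy, was 0.05 over the known rows, with 37 above and 31 below 0, and −0.20 over the numbered rows, with 140 above and 248 below 0. A change that missed the threshold is not shown to be absent.

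The vessel-lining miRNA miR-126, which in mouse and zebrafish maintains vascular integrity, gave the known row with the highest mean signal. miR-126-5p had a signal of 164229 to 374058 in clinical cows, with a median of 230381, and of 126306 to 286511 in healthy cows, with a median of 189940. Values of 5 of 7 clinical cows lay above the healthy mean, and the groups overlapped over most of their range. The means were 237560 ± 68486 and 195838 ± 53267 (SD, n = 7 each), with a limma log2 change of 0.28 (95% interval −0.10 to 0.66, adjusted p = 0.710). Its other arm, miR-126-3p, had 4914 to 22601 (median 8303) in clinical and 2827 to 12512 (median 4505) in healthy cows. Clinical 3 was the highest of the 14 cows, and 4 of 7 clinical cows exceeded the healthy mean. The log2 change of miR-126-3p was 0.63 (95% interval −0.22 to 1.48, limma adjusted p = 0.710). Together both arms took 16.96% to 39.7% of known reads in clinical and 12.9% to 29.7% in healthy cows.

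The let-7 family, which represses growth and proliferation genes such as LIN28 and HMGA2 in human and mouse cells, made up the largest share of the known reads among the families listed. It took 30.3% to 59.1% of them in clinical cows, with a median of 41.5%, and 39.6% to 47.7% in healthy cows, with a median of 44.1%. Of its 10 rows 9 were tested, 0 were called, and 5 had a change above 0 and 4 below, with a median log2 change of 0.01 against 0.05 over all known rows. let-7a-5p had a signal of 123485 to 278482 (median 183129) in clinical and 163296 to 192308 (median 183778) in healthy cows. The medians nearly coincide, while clinical cows lie on both sides of the healthy range, 3 above it and 2 below it. By limma its log2 change was 0.01 (95% interval −0.32 to 0.34, adjusted p = 0.985). let-7f had 77629 to 168048 (median 130890) against 104187 to 135886 (median 121752), with a log2 change of 0.04 (95% interval −0.31 to 0.40, limma adjusted p = 0.951).

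let-7b and let-7c lay lower in the clinical group without passing the test. let-7b had a signal of 62827 to 104453 (median 70267) in clinical and 64660 to 127556 (median 88469) in healthy cows, with a limma log2 change of −0.27 (95% interval −0.65 to 0.12, adjusted p = 0.744). let-7c had 7978 to 18072 (median 14412) against 8829 to 37303 (median 18952), with a change of −0.55 (95% interval −1.16 to 0.07, limma adjusted p = 0.661). All 7 clinical cows were below the healthy mean of let-7c, and 6 of 7 were below that of let-7b, but 1 clinical cow alone was below the lowest healthy cow in each. Members of the let-7 family differ by few bases, and reads could be split between them by the authors' counting.

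**Figure D1:**
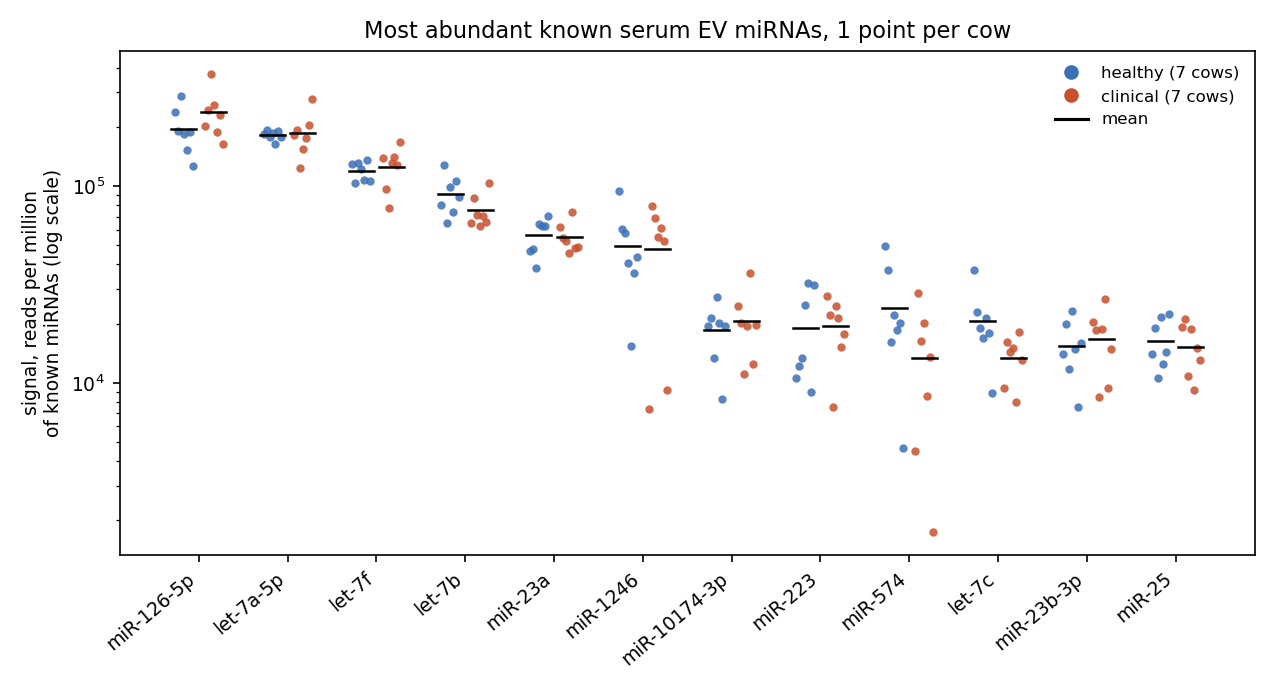
Signal of the most abundant known miRNAs in each cow, as reads per 1000000 of known miRNAs on a log axis, with 1 point per cow, 7 clinical and 7 healthy cows, and a line at each group's mean. Clinical and healthy points overlap for every miRNA shown, and miR-574 and miR-1246 spread the most within a group.

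Of the miRNAs of blood cells, miR-223, a regulator of granulocyte maturation, was read in all 14 cows. Its signal was 7534 to 27577 (median 21479) in clinical and 9009 to 32181 (median 13378) in healthy cows. The medians differ, but 4 clinical cows were above and 3 below the healthy mean and the ranges coincide almost fully. The limma log2 change was 0.10 (95% interval −0.58 to 0.78, adjusted p = 0.933). For miR-142-3p, which is expressed throughout the blood cell lineages, clinical cows had 4603 to 13899 (median 5897) and healthy cows 3604 to 8181 (median 5818). The opposite arm, miR-142-5p, had 0 to 4140 (median 1966) and 0 to 6958 (median 2921). Neither arm was separated between the groups, with log2 changes of 0.24 (95% interval −0.52 to 1.001) and −0.30 (95% interval −1.80 to 1.195). These 3 rows, listed as neutrophil and myeloid miRNAs, had a median change of 0.10 with 0 called, and took 1.34% to 4.56% of known reads in clinical and 1.502% to 4.41% in healthy cows.

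miR-486, made during red cell development, had a signal of 4913 to 11967 (median 9463) in clinical and 2406 to 13916 (median 7303) in healthy cows, with a limma log2 change of 0.28 (95% interval −0.50 to 1.06, adjusted p = 0.881). The clinical values lay within the healthy range. The other red cell miRNAs were at the limit of detection: miR-451 had 23 reads in 4 clinical and 9 reads in 2 healthy cows, and miR-144 had 0 clinical reads and 3 reads in 1 healthy cow. A count of 0 among the 63128 known reads of the clinical scaling totals allows a share of up to 0.00475%, for counting error only, and of up to 0.0102% among the 29352 reads without clinical 7. The lymphocyte list (miR-150, miR-342, miR-181 and miR-28) had 2 of 5 rows tested, both above 0, with a median of 0.16, and the platelet-linked list had 1 of 6 tested, miR-191, at 0.34. None was called.

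Inflammation-induced miRNAs were mostly rare or overlapping. miR-21-5p, induced by inflammatory signalling in many human and mouse cells, had a signal of 2948 to 22180 (median 14328) in clinical and 6689 to 28919 (median 15399) in healthy cows. In 5 of 7 clinical cows the value was below the healthy mean, and 2 were below the lowest healthy cow. Its log2 change by limma was −0.51 (95% interval −1.32 to 0.29, adjusted p = 0.755). miR-221 and miR-222, which in human cells repress the cell cycle inhibitor p27, were seen at a few reads. miR-221 was read in 6 clinical cows (45 reads) and 3 healthy cows (16 reads), with a log2 change of 0.66 (95% interval −0.54 to 1.86). miR-222 was read in 5 clinical cows (13 reads) and 2 healthy cows (4 reads), with a log2 change of 0.57 (95% interval −0.36 to 1.51). Clinical libraries hold 64783 known reads in sum and healthy libraries 21103, and the part of this depth in counts of libraries with a read was not tested.

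miR-146a and miR-146b, feedback regulators of innate immune signalling, were read in 1 clinical cow each, with 3 and 9 reads, and in 0 healthy cows. With 0 of the 20329 reads of the healthy scaling totals, a share of up to 0.0148% was possible in healthy cows. The clinical reads of each come from 1 cow, at a signal of 983 for miR-146a (clinical 3) and 1465 for miR-146b (clinical 6). No difference between the groups can be read from them. miR-147 had 3 reads in 1 healthy cow and 0 in clinical cows. Over the list, 3 of 6 rows were tested, 2 above 0 and 1 below, with a median of 0.57 and 0 called. This median is the value of miR-222, which rests on 13 clinical and 4 healthy reads. The row below 0 is miR-21-5p, the most read of the 3.

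Liver and epithelial miRNAs were rare or at 0 in the vesicles of both groups. miR-122, the dominant miRNA of hepatocytes, was listed at 0 in 4 clinical and 4 healthy cows. In the others it was 2457 (clinical 2), 2455 (clinical 5), 237 (clinical 7), 481 (healthy 4), 2827 (healthy 5) and 4324 (healthy 7). High and low values occur in both groups, so no direction can be read. miR-885 and miR-483, further liver miRNAs, had 2 and 7 reads over all 14 libraries. Of 9 epithelial rows (the miR-200 family and others expressed in epithelia, including the mammary gland) 6 were read and 0 could be tested, and their sum took at most 0.153% of known reads in a clinical and 0.216% in a healthy cow. Striated muscle rows could not be tested either, with at most 0.344% and 0.171%. Of 13 smooth muscle and stroma rows 1 was tested, at −0.11.

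Among the most abundant miRNAs without a tissue list, changes were near 0 or wide. miR-23a, of the miR-23a/27a/24 cluster, had 45625 to 74256 (median 52408) in clinical and 38462 to 70270 (median 62622) in healthy cows, with a limma log2 change of −0.01 (95% interval −0.41 to 0.39). miR-23b-3p was at 8516 to 26695 (median 18673) and 7508 to 23099 (median 14786), with a change of 0.10 (95% interval −0.53 to 0.74). miR-25, of the miR-106b/25 cluster, was at 9205 to 21130 (median 14979) and 10591 to 22342 (median 14264), with a change of −0.10 (95% interval −0.68 to 0.48). These 3 are among the more precisely measured rows, and clinical and healthy cows are interleaved in each. The bovine miR-10174-3p had 11137 to 36207 (median 19600) against 8258 to 27430 (median 19507), with a change of 0.13 (95% interval −0.48 to 0.74). miR-1246, which in human cells can come from a fragment of the U2 small nuclear RNA, had 7319 to 79116 (median 55348) against 15438 to 94114 (median 43784), with a change of −0.32 (95% interval −1.23 to 0.59). Its clinical median is the higher of the 2, while 2 clinical cows lie below the lowest healthy cow, so the direction depends on the measure. These cows are clinical 1 (7319) and clinical 7 (9208), whose libraries hold the most known reads. The relation of miR-1246 to known reads was not tested.

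Among known rows with higher values in clinical cows and a mean signal of at least 296 over the 14 libraries, the 6 smallest p-values were those of miR-126-3p, miR-454, miR-126-5p, miR-374b, miR-26b and miR-221, with limma adjusted p from 0.710 to 0.807. miR-374b was at 1474 to 2762 (median 2293) in clinical and 0 to 2523 (median 1444) in healthy cows. All 7 clinical cows exceeded its healthy mean, and 2 exceeded the highest healthy cow. Its limma log2 change was 0.84, with a 95% interval from −0.39 to 2.08 (adjusted p = 0.746). miR-454 was read in 4 clinical cows with 64 reads and in 3 healthy cows with 3 reads, and its log2 change was 0.82 by limma (95% interval −0.30 to 1.95), 2.39 by edgeR (adjusted p = 0.613) and 2.29 by DESeq2 (adjusted p = 0.494). Its ratio of means, clinical over healthy, was 4.22, and 8.82 without healthy 6. miR-26b was read in 5 clinical cows with 30 reads and in 2 healthy cows with 4 reads, at 0.57 by limma (95% interval −0.45 to 1.60), 1.16 by edgeR (adjusted p = 0.828) and 1.03 by DESeq2 (adjusted p = 0.873).

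Among known rows with lower values and the same minimum mean, miR-2478 had the smallest p. Its signal was 266 to 5523 (median 1183) in clinical and 901 to 34567 (median 4331) in healthy cows. All 7 clinical cows were below the healthy mean of 9914 ± 12028 (SD), which healthy 2 raises, and the groups overlapped. By limma the log2 change came to −1.63 (95% interval −2.99 to −0.26, unadjusted p under 0.05, adjusted p = 0.496), and it was −2.15 by edgeR (adjusted p = 0.310) and −2.29 by DESeq2 (adjusted p = 0.118). The ratio of means, healthy over clinical, was 4.86 and was 2.85 without healthy 2. miR-11972 (−1.10, 95% interval −2.44 to 0.23), miR-874 (−0.94, 95% interval −2.11 to 0.23) and miR-11980 (−1.17, 95% interval −2.64 to 0.30) rest on 16 to 86 reads per group. Of the 73 rows with bovine high-numbered names, which include miR-2478, miR-11972 and miR-11980, 12 were tested. Of these 4 lay above and 8 below 0, with a median of −0.72, and 0 were called.

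**Figure D2:**
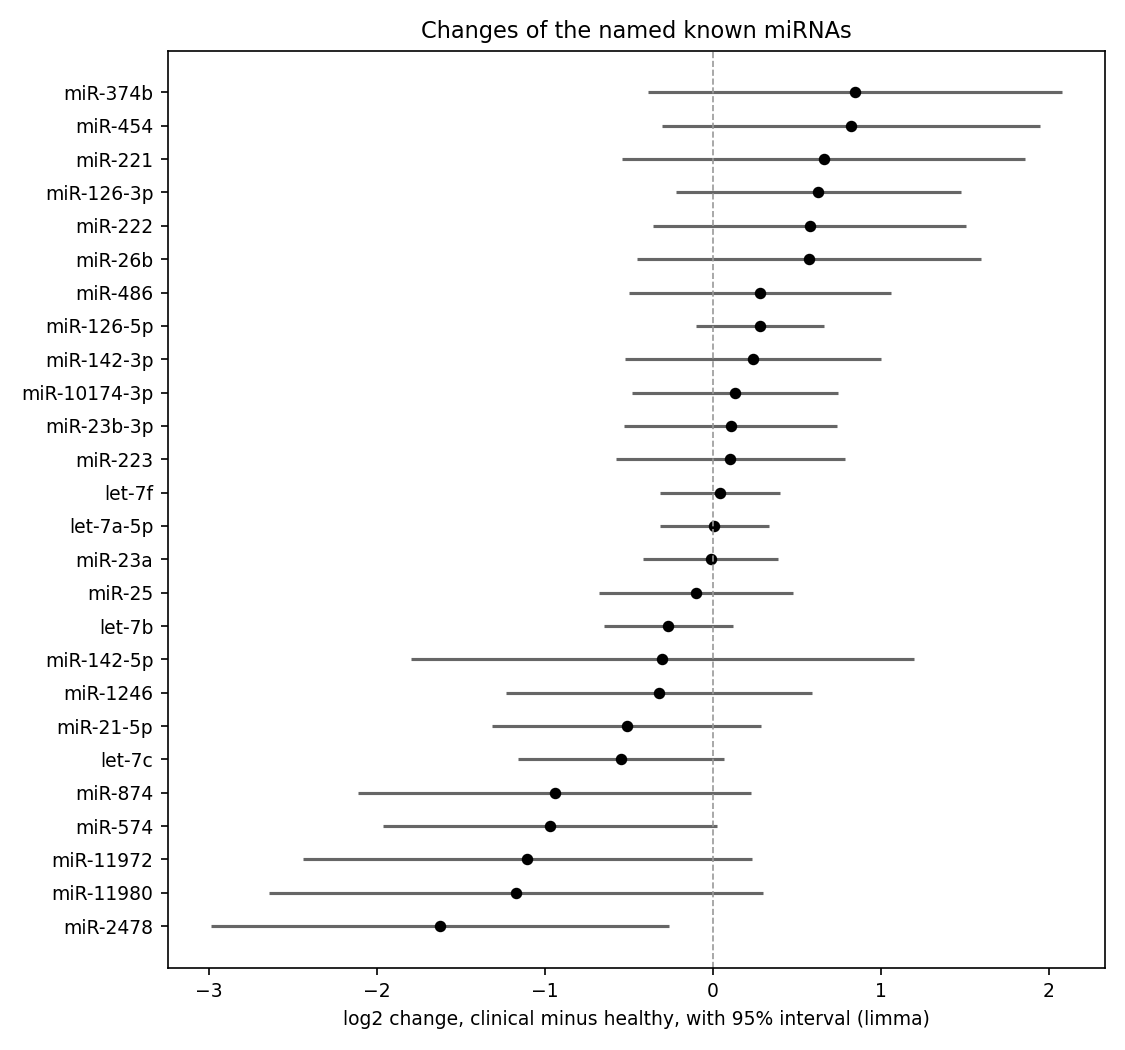
Log2 change, clinical minus healthy, of the named known miRNAs by limma, with the 95% interval as a bar. Of those shown, miR-2478 alone has an interval that excludes 0 before adjustment.

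miR-574 had the second smallest p among these lower known rows, and its signal moved with the known reads of a library. Clinical cows had 1747 to 28501 (median 13514) and healthy cows 4685 to 49624 (median 20270). Of the clinical cows 6 of 7 were below the healthy mean and 2 below the lowest healthy cow, clinical 1 and clinical 7. These hold the most known reads, but clinical 7 holds the fewest numbered reads of the clinical libraries (30931). Known reads are thus not the depth of a library as a whole. The limma log2 change was −0.97 (95% interval −1.96 to 0.02, adjusted p = 0.602). Across the 14 libraries log signal fell with log known reads, with a Pearson r of −0.82 (permutation adjusted p = 0.0078 over 12 miRNAs) and a Spearman rho of −0.70 (permutation adjusted p = 0.0805). Without clinical 1 and clinical 7, r was −0.50 (permutation p = 0.102), no longer past the threshold. Within the clinical group r was −0.93 (exact permutation p = 0.00357, n = 7), and within the healthy group it was −0.48 (exact permutation p = 0.274, n = 7). The part of the number of known reads in the lower clinical values of miR-574 was not tested. The other 11 miRNAs in this family of relations did not pass, and miR-1246 was not among them. The list of miR-423, miR-574, miR-1246 and miR-320 had 4 of 5 rows tested, all below 0, with a median of −0.45 and 0 called.

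**Figure D3:**
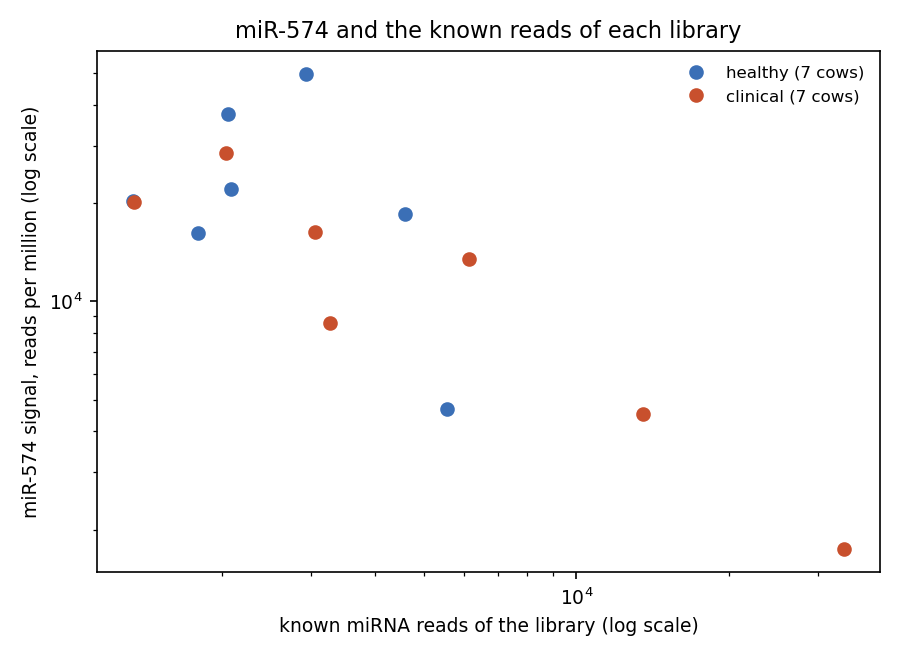
miR-574 signal (reads per 1000000 of known miRNAs) against the known reads of each library, both on log axes, for 7 clinical and 7 healthy cows. Clinical 7 and clinical 1, at the right, hold the most known reads and have miR-574 signals of 1747 and 4510.

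The remaining lists gave changes on both sides of 0 with 0 called. The miR-17-92 cluster and its relatives had 6 of 12 rows tested, 5 above 0, with a median of 0.28. The miR-23/27/24 clusters had 3 of 8 tested (median 0.10), the miR-29 family 2 of 5 (median 0.01) and the miR-15, miR-16 and miR-103 group 2 of 8 (median −0.28). miR-192 and miR-194 of gut, kidney and liver epithelium had a median of −0.43 over 2 of 5 rows. miR-26 and miR-101 had 1 of 3 rows tested, miR-26b, and the miR-30 family had 0 of 6.

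Of the 235 known miRNAs read, 2 (0.851%) were read in 4 clinical cows and in 0 healthy cows, and none the other way round, with 64783 clinical against 21103 healthy known reads. The numbered row 16_30468 had the same pattern, from 10 reads. miR-27b had 518 (clinical 1), 328 (clinical 3), 814 (clinical 6) and 178 (clinical 7), from 19 reads. Of these 13 were in clinical 1 and clinical 7, which hold the most known reads. miR-2419-5p had 73.9 (clinical 1), 983 (clinical 2), 1227 (clinical 5) and 474 (clinical 7), from 23 reads, 17 of them in clinical 1 and clinical 7. All healthy libraries and the other 3 clinical libraries were listed at 0 for each, and the healthy limit is the 0.0148% given above. In RefSeq's ARS-UCD2.0 annotation the miR-27b hairpin lies within 10000 bases of those of miR-23b and miR-24-1. miR-23b-3p was read in all 14 cows.

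The 2 arms of a hairpin come from 1 precursor, and their ratio does not depend on the scaling. The log2 ratio of 5p to 3p reads, with 0.5 read added to each, could be tested for 10 hairpins by exact permutation. None was called, and 0 had an unadjusted p under 0.05. Where 1 arm has 0 reads, the ratio follows the reads of the other arm. For miR-10174 it was −10.4 from 0 and 662 reads in clinical 7, and −4.52 from 0 and 11 reads in healthy 6. A library with 0 reads on both arms enters with a ratio of 0, such as healthy 1 for miR-17. For such hairpins the test says little about the arms. For miR-126 the ratio was 4.74 ± 0.52 in the clinical group and 5.10 ± 0.62 in the healthy group (± SD with 7 cows each, exact permutation p = 0.252, adjusted p = 0.805). The 5p arm exceeded the 3p arm in both groups. For miR-142 the 3p arm was the more read, at −1.90 ± 1.17 and −1.33 ± 1.76 (exact permutation p = 0.487), and the ratios overlapped.

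Among the numbered rows, 4_9843 held the highest mean signal, and its mean was higher in clinical cows by a margin that DESeq2 called and limma and edgeR did not. Its signal was 392568 to 472380 (median 440411) in clinical and 293292 to 395576 (median 344797) in healthy cows. All 7 clinical cows exceeded the healthy mean, and clinical 6 alone lay below the highest healthy cow, healthy 3. The means were 435279 ± 29258 and 349408 ± 34167 (SD, n = 7 each), with a log2 change of 0.32 by limma (95% interval 0.15 to 0.50, adjusted p = 0.174). edgeR gave 0.59 (adjusted p = 0.217) and DESeq2 0.57 (adjusted p = 0.0186). Without clinical 1 and clinical 4, which carry the high values of 2_2973 described below, DESeq2 gave 0.52 and no call (adjusted p = 0.217), and limma gave 0.32 (adjusted p = 0.417). As a share of the summed numbered reads, 4_9843 took 39.3% ± 2.8 in the clinical and 30.9% ± 3.3 in the healthy group (SD, n = 7 each). The sequence and identity of 4_9843 are not stated. Its relation to the numbered reads of a library did not pass, with r of 0.59 in clinical (exact permutation test, adjusted p = 0.249 over 6 relations, n = 7) and 0.79 among the healthy (exact permutation test, adjusted p = 0.105, n = 7). The part of depth in the group difference was not tested.

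Because all numbered rows share 1 total, a larger share of 4_9843 leaves a smaller share for the rest. Of the 388 numbered rows, 2 had every clinical cow below every healthy cow (0.515% of rows tested), and 0 had the reverse. 17_32195 had 5783 to 8731 (median 7414) in clinical and 9268 to 12004 (median 10856) in healthy cows, and 2_3123 had 1073 to 2309 (median 1863) and 2408 to 3343 (median 3069). Their limma log2 changes were −0.51 (95% interval −0.78 to −0.24) and −0.77 (95% interval −1.19 to −0.35), each with adjusted p = 0.174. After 4_9843 was taken out of the total, the groups overlapped narrowly in both rows and 0 numbered rows separated them. 17_32195 was then at 8775 to 12385 in clinical and 12100 to 15001 in healthy cows. Clinical 7 alone passed the lowest healthy cow, healthy 1. The change was −0.30 (limma unadjusted p = 0.0276, adjusted p = 0.723). 2_3123 was at 1523 to 3395 and 3014 to 4408, where clinical 3 and clinical 5 alone passed the lowest healthy cow, healthy 6. Its change was −0.56 (limma unadjusted p = 0.0120, adjusted p = 0.723). Within the clinical group the signal of 2_3123 rose with the numbered reads by Pearson correlation, but the relation did not pass by Spearman. The Pearson r was 0.85 (exact permutation test, adjusted p = 0.0405 over the same 6 relations, n = 7). The Spearman rho was 0.71 (exact permutation test, adjusted p = 0.354, n = 7). Clinical 7 holds the fewest numbered reads of that group and the lowest 2_3123 signal. Among the healthy, r of 2_3123 was −0.16. For 17_32195, r was −0.55 for the clinical and −0.59 for the healthy group. Neither passed (adjusted p = 0.249 each by the same permutation test). The part of depth in the lower clinical values of these rows was not tested. With 4_9843 out of the total, the median over numbered rows moved from −0.20 to −0.02, with 204 below and 183 above 0.

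**Figure D4:**
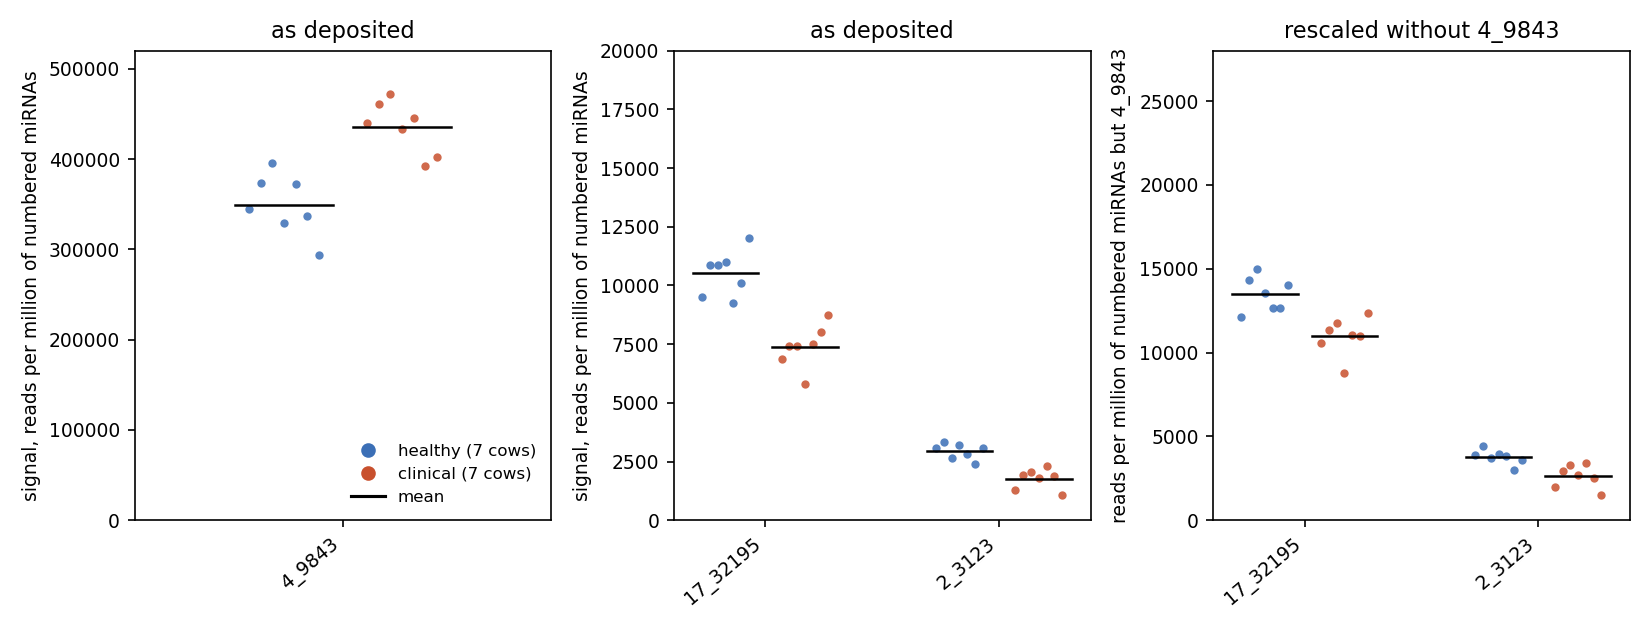
Signal of 4_9843 (left) and of 17_32195 and 2_3123 (middle) in each cow, in reads per 1000000 of numbered rows, and the latter rows again with 4_9843 taken out of the total (right), for 7 clinical and 7 healthy cows with a line at each mean. The groups are apart in the middle panel and overlap narrowly in the right panel.

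Further numbered rows named by abundance or by small p did not pass. NKLS02002111.1_47333 had 68436 to 105169 in clinical and 71933 to 124337 in healthy cows (limma log2 change −0.27, adjusted p = 0.661). X_46560 had 34723 to 57890 and 48392 to 62858 (−0.22, adjusted p = 0.661). 21_37337 had 16247 to 53683 (median 30593) and 39663 to 95126 (median 47564), with 4 clinical cows below every healthy cow (−0.78, limma adjusted p = 0.336). 24_40275 had 7684 to 13529 and 12358 to 17461, with 6 clinical cows below every healthy cow (−0.48, limma adjusted p = 0.285). 26_41909 and 20_35178 had the smallest p among the numbered rows with higher values beside 4_9843, at 3381 to 11665 against 2560 to 6408 (0.87, limma adjusted p = 0.339) and 3008 to 10963 against 2207 to 6103 (0.82, limma adjusted p = 0.428). Their values follow each other closely over the 14 cows, so they are not independent. Once 4_9843 was taken out of the total, the changes were −0.05 for NKLS02002111.1_47333 and −0.0036 for X_46560, and the others named here were −0.57 for 21_37337, −0.26 for 24_40275, 1.09 for 26_41909 and 1.04 for 20_35178 (limma adjusted p from 0.723 to 0.994 over all of these).

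The other row that DESeq2 called, 2_2973, rests on clinical 1 and clinical 4. In them its signal was 22973 and 80110, from 879 and 3200 reads, against 628 to 2471 (median 1023) in the other 12 libraries. The log2 change was 3.996 by DESeq2 (adjusted p = 0.0186), 4.07 by edgeR (adjusted p = 0.248) and 1.11 by limma (adjusted p = 0.761). The ratio of means, clinical over healthy, was 11.4, and 3.41 without clinical 4. Without both libraries the change was −0.28 by DESeq2 and −0.46 by limma, so its direction turned. Including 2_2973, 5 of the 540 numbered rows read were over 5 times as high in both of these cows as in any of the other 12. This pattern was noticed after the values were seen, and the same count for other pairs of cows is not given here. 2_4386 was at 1359 in clinical 1 and 5908 in clinical 4, and at most 81.0 in the others. 5_9943 was at 836 and 2478, 3_6522 at 287 and 676 and 14_28170 at 157 and 676, and these were listed at 0 in the other 12.

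**Figure D5:**
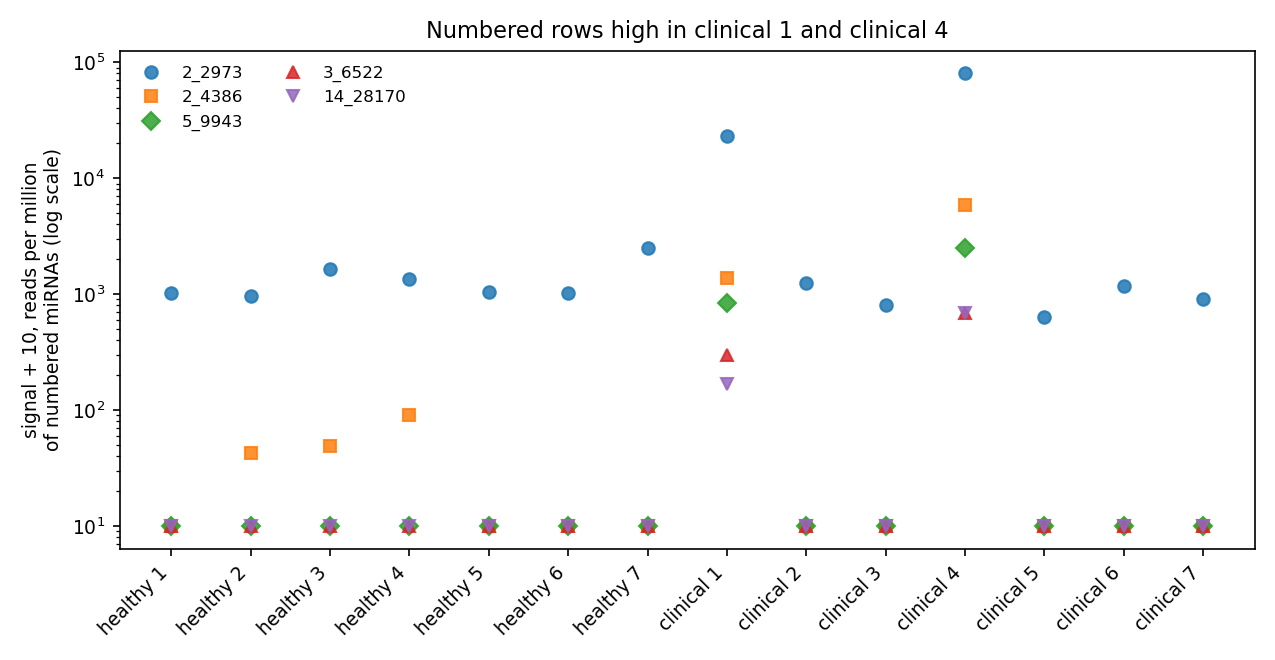
Signal of the numbered rows that are high in clinical 1 and clinical 4, for each of the 14 cows, in reads per 1000000 of numbered rows plus 10 on a log axis. Clinical 4 is the highest for each row and clinical 1 the next, and the other 12 cows lie at or near the bottom of the axis except for 2_2973.

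Of 6 whole-profile measures 1 passed, and it did not without 4_9843. The Shannon entropy of numbered reads, which is low when a few rows take most reads, averaged 4.56 ± 0.24 bits over the clinical and 5.01 ± 0.25 bits over the healthy cows (± SD with 7 cows each, two-sided exact permutation p = 0.00408, adjusted p = 0.0245 over 6 measures). Without 4_9843 it was 5.92 ± 0.26 and 5.97 ± 0.20 bits (exact permutation p = 0.731). For known miRNAs it was 4.02 ± 0.21 and 4.21 ± 0.37 bits (exact permutation p = 0.251, adjusted p = 0.443).

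The number of known miRNAs seen, when every library was thinned to 1371 reads, averaged 67.8 ± 5.4 in the clinical group and 67.5 ± 13.2 in the healthy group (± SD with 7 cows each, exact permutation p = 0.946). Unthinned, 68 to 159 were seen in clinical and 59 to 121 in healthy libraries. At 13033 numbered reads, 304.9 ± 24.1 and 318.6 ± 17.8 numbered rows were seen (exact permutation p = 0.241, adjusted p = 0.443). Libraries of 1 group were not shown to be more alike than libraries of different groups: the mean distance, 1 minus the Spearman correlation, was 0.224 between and 0.223 within groups for known rows (one-sided exact permutation p = 0.380) and 0.299 and 0.296 for numbered rows (exact permutation p = 0.295). The mean within groups pools both groups. For known rows, mean correlation with a library's own group was 0.773 to 0.824 in clinical and 0.714 to 0.789 in healthy cows. Libraries were not thinned for these distances, and the part of depth in them was not tested.

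The precision of these values limits what could be seen. The 95% interval of the log2 change was narrower than 1 on each side for 27 of 68 known rows (39.7%) and 142 of 388 numbered rows (36.6%). The median known row had a half-width of 1.15, and the best measured, let-7a-5p, of 0.33.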

How the data were processed

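Per the labels' protocols, vesicle RNA was taken up with the miRNeasy Mini kit, and the TruSeq small RNA kit was used for the libraries. Bowtie, edgeR and the ARS-UCD1.2 build are named without a role, per the submitters' processing notes. Nothing in the sources used here says how vesicles were isolated or reads trimmed and counted. The authors deposited signal values in 1 table for all libraries, reads per 1000000 of a block total, scaled separately for known and numbered rows. The deposited values had been taken for a normalized unit, scaled separately for each block, when the tests were set, and the tests were kept. Every value above 0 (10115 of 10115, 100%) is a whole multiple of 1 read within 0.05 reads, which gave back whole reads. Columns holding 3 group means were not used. Of the numbered rows, 67 equal another row in all 21 libraries.

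Main test: limma 3.58.1 (R 4.3.3) with an intensity trend, fitted to each block in the 14 libraries, two-sided, with Benjamini-Hochberg adjustment over both blocks. Log2 changes refer to log2(signal + pseudocount), which understates changes of low rows. edgeR 4.0.16 and DESeq2 1.42.0 on recovered reads were alternatives. Single values were tested by exact permutation over 3432 relabellings, whose smallest two-sided p is 0.000583, and correlations over 14 libraries by 100000 permutations. Scripts (Python 3.11.15, numpy 2.4.6, pandas 2.3.3, scipy 1.17.1, matplotlib 3.10.9) were tested on simulated data. Each library is 1 cow, and p-values measure the spread between cows. Limits on a count of 0 are 3 reads. They cover counting error only, since PCR copies were not told apart.

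Rows named are the 12 most abundant known rows, the 6 higher and 6 lower known rows with the smallest p above a minimum mean, the 4 most abundant numbered rows with the 3 higher and 3 lower of smallest p, rows called by any tool, members of the blood, liver, inflammation and endothelial lists, and known rows read in at least 4 libraries of 1 group and 0 of the other. MT_46829, 28_43258, 16_30468, 2_4386, 5_9943, 3_6522 and 14_28170 meet none of these rules and were added after the values were seen. Members and lists were chosen with earlier results of these data known.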

Additional observations from a re-analysis of the deposited data

Results flagged for a closer look

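Of 78 groups of 7 values checked, 13 had 1 cow far from the other 6, by a gap over 0.568 of the group's range. Chance flags about 1 in 20 groups when values are normally distributed. Signal was checked without a log and all 13 flags are at the high end, so this rate need not hold here. Many of these rows hold few reads.

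In the clinical group, clinical 3 stood apart for miR-126-3p at a signal of 22601, with the next cow at 11533. Clinical 1 stood apart for miR-142-3p at 13899 (next 6069), clinical 4 for 2_2973 at 80110 (next 22973) and for miR-222 at 1496 (next 491), and clinical 5 for miR-11980 at 5523 (next 983).

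In the healthy group, healthy 5 stood apart for miR-11972 at 7393 (next 3003), 21_37337 at 95126 (next 57492), 26_41909 at 6408 (next 3725), 20_35178 at 6103 (next 3490) and miR-222 at 652 (next 180). Healthy 3 stood apart for miR-26b at 1672 (next 180) and healthy 7 for miR-221 at 2162 (next 751). Healthy 7 also had the highest Shannon entropy of numbered reads, at 5.57 bits (next 5.02).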

How the results depend on the processing

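limma called 0 rows under every alternative run, with DESeq2 giving 2 calls. Changes near 0, and those on 1 scale by edgeR, turned direction with the scaling. miR-23a went from −0.01 to 0.045 under median-ratio scaling, 0.12 on 1 scale for both blocks, 0.17 by edgeR, 0.91 by edgeR on 1 scale and 0.032 by DESeq2. edgeR on 1 scale, which moved the known median to 0.84, gave let-7b 1.13, let-7c 0.63, miR-25 0.82, miR-11972 0.10, miR-142-5p 0.62, miR-21-5p 0.87 and NKLS02002111.1_47333 0.0065. X_46560 was 0.033 under median-ratio scaling, 0.052 by edgeR, 0.072 by edgeR on 1 scale and 0.034 by DESeq2. miR-25 was 0.030 on 1 scale and 0.072 by edgeR, and miR-1246 0.11 by edgeR. Beside the calls of 4_9843 and 2_2973 by DESeq2, 2_2973 turned to −0.28 (DESeq2) and −0.46 (limma) without clinical 1 and clinical 4, an alternative added after the data were seen, under which DESeq2 no longer called 4_9843 (0.52, adjusted p = 0.217). For these scaling changes the cause was not tested.

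For numbered miRNAs detected at equal reads the direction turned without thinning, from a clinical minus healthy difference of −13.7 to 21 (exact permutation p = 0.0157), and without 4_9843 the difference in Shannon entropy of numbered miRNAs was −0.045 (exact permutation p = 0.731). Leaving out 1 library at a time, direction turned for let-7a-5p (−0.093 to 0.10), let-7f (−0.032 to 0.15), miR-23a (−0.098 to 0.046), miR-1246 (−0.57 to 0.050), miR-10174-3p (−0.044 to 0.26), miR-223 (−0.045 to 0.31), miR-25 (−0.19 to 0.011), miR-142-5p (−0.77 to 0.11), known miRNAs detected at equal reads (−1.81 to 3.98) the profile distance of known miRNAs (−0.0114 to 0.0107) and the profile distance of numbered miRNAs (−0.00721 to 0.0139). Over 35 named rows and 923 values, 881 kept their direction and side, 40 turned and 2 passed.

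With the replicate number as a block limma made 0 calls, with 37 rows at an unadjusted p under 0.05. Deviations of same-numbered cows from their group means correlated at −0.08 to 0.36, without a test. Of the 7 pairs 2 were over 0.1, replicate 3 at 0.14 and replicate 7 at 0.36. Of the clinical libraries 1 of 7, clinical 7, matched its own number best. The numbers were not taken as pairs in the main test, and what the replicate 7 libraries share was not tested. Without the replicate 7 libraries limma made 0 calls.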

Other observations

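MT_46829 varied more within each group than between them. It was at 14636, 15746, 3010, 2278, 1435, 29919 and 23293 in clinical 1 to 7 and at 2523, 3707, 4282, 3282, 12511, 11966 and 30097 in healthy 1 to 7. The lowest and highest cows of both groups differ by over 10 times. The limma log2 change was 0.20 (95% interval −1.22 to 1.63, adjusted p = 0.933).

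28_43258 was at 62686 in clinical 4, from 2504 reads, and between 4577 and 20502 in the other 13 cows, with medians of 7869 in clinical and 10175 in healthy cows. The limma log2 change was 0.41 (adjusted p = 0.824).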
